A study of Homo sapiens with 6 samples.

Results

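Cadherins are membrane proteins that hold cells together through calcium-dependent binding of their extracellular cadherin repeats, and the classical members bind catenins inside the cell, which join them to actin. Protocadherins carry the same kind of repeats but do not bind catenins in the classical way. The clustered protocadherins (PCDHA, PCDHB and PCDHG) lie side by side on chromosome 5, and in neurons the choice among their promoters gives single cells different sets of surface proteins, which neurites use to recognise those of the same cell. Most clustered promoters hold a short conserved element bound by the insulator protein CTCF, and the PCDHA and PCDHG genes join a variable first exon to shared constant exons, whereas PCDHB genes lack constant exons.

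The members described here are the genes whose symbol is CDH or PCDH followed by digits and capital letters in the annotation of the array, taken from rows with exactly 1 symbol, with the brightest row kept for each gene. This gave 63 of the 18404 genes tested: 31 clustered protocadherins (12 PCDHA, 18 PCDHB with 2 pseudogenes among them, and 1 PCDHG), 11 other protocadherins and 21 cadherins. Other symbols of these families, CDH4 among them, were not analysed here. Total RNA came from BE(2)-C, an established cell line from a human neuroblastoma that carries extra copies of MYCN, grown with dialysed serum. The groups were 3 samples kept in 5 µM BIX01294 for 24 h, and 3 samples kept in 0.05% DMSO, the solvent, for 24 h. The DMSO content of the treated samples is not given in the sources used here. BIX01294 inhibits the histone methyltransferases EHMT1 and EHMT2. The samples of a treatment are called independent, but separate cultures are not stated, so the tests measure the spread between these samples, which may be technical.

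Values are on a log2 scale, 1 per gene and array, with array medians of 6.94 to 7.01. Each change is BIX01294 minus DMSO on that scale, with its standard error (SE). A gene was called when its adjusted p in limma was under 0.05 after Benjamini-Hochberg adjustment over all 18404 genes. The table holds no detection call, so a member under an array's median may be near background, and a change there can understate the true one. No fold is given for members that lay under the median of all 6 arrays, which 30 of the 63 did. All 13 measured genes of a 15-gene list of neuroblastoma identity (MYCN, PHOX2A, GATA3, DBH and others) lay above the median of all 6 arrays. In RNA of whole cultures, fewer cells of a type and less RNA per cell cannot be told apart.

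Within the clusters, the promoters are shown first because most clustered genes share a short pattern there, whether they were called or not. RefSeq promoter windows (build GRCh38.p14, 250 bases before to 50 after the annotated start) were found for 45 of the 63 members. Among clustered genes, PCDHB6, PCDHB11, PCDHB17P, PCDHB18P, PCDHA3 and PCDHA13 had no window. Of the clustered genes that rose, PCDHA11 alone could thus be searched. A set of 3 letter patterns, written after reading these windows, were searched on both strands: GGTGGCGCT, GATGTCGCT and GNTGNCGCT, the last of which contains the others. GGTGGCGCT was found in 13 of 14 PCDHB windows, against 0.501% of 35116 windows of all genes, and PCDHB1 was the one without it. GATGTCGCT was found in 9 of 10 PCDHA windows, against 0.105% of all windows. None of the 31 windows of members outside the clusters held either pattern. GNTGNCGCT was found in all 10 PCDHA windows, in 13 of 14 PCDHB windows, in both PCDHGB4 windows (on the opposite strand only), in 2 of the 31 windows of members outside the clusters (6.45%) and in 4.34% of all windows. A match describes letters and is not a shown binding site.

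Below, the capitals mark the matched pattern in 40 bases of the plus strand, 5′ to 3′, on chromosome 5. The first 5 genes fell, PCDHA11 rose, and the last 4 did not pass the test; PCDHB7, PCDHB13, PCDHB14 and PCDHA6 are shown for comparison with them.
PCDHB8 (chr5:141177773-141177812): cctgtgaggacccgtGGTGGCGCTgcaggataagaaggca
PCDHB3 (chr5:141100389-141100428): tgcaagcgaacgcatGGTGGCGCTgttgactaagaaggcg
PCDHB5 (chr5:141135175-141135214): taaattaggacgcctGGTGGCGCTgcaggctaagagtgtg
PCDHB10 (chr5:141192295-141192334): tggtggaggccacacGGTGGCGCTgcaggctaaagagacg
PCDHB12 (chr5:141208639-141208678): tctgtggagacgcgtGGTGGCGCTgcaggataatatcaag
PCDHA11 (chr5:140868879-140868918): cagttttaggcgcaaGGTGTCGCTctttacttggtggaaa
PCDHB7 (chr5:141172562-141172601): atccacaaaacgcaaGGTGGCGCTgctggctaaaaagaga
PCDHB13 (chr5:141213861-141213900): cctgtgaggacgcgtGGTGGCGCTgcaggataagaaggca
PCDHB14 (chr5:141223259-141223298): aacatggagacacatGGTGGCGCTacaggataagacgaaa
PCDHA6 (chr5:140827893-140827932): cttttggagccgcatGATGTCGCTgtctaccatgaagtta

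The same 9 letters thus stood in the windows of PCDHB genes that fell and of PCDHB genes that did not pass the test. In PCDHB8 they began at position -2 from the annotated start and ran across it, beside a PCDHB median of -66. PCDHA11, the PCDHA gene that rose, was the one PCDHA window without GATGTCGCT, and its window matched GNTGNCGCT. The windows of PCDHB8 and PCDHB13 aligned over 259 positions with 93.8% identical bases, the closest pair among the 14 PCDHB windows. These windows lie mostly before the start, so their likeness does not measure that of the transcripts which the probes target. Whether probes of clustered genes share targets was not tested, so values of single clustered genes are uncertain in that respect.

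Across all members, 13 of 63 were called, 11 lower and 2 higher. This was 20.6% of the members, a share near the 23.6% of all genes. By direction, 17.5% of the members fell, against 10.7% of all genes, and 3.17% rose, against 12.9% of all genes. The median change of the members was -0.06, beside -0.01 for all genes. After centring each array on its median the split was 10 lower and 5 higher. Over all 18404 genes, 1536 fell and 2762 rose after centring, beside 1970 and 2379 before it. The count of falling members was 7 without DMSO replicate 1, where the count of all falling genes was 1318. The count of rising members was 1 without BIX01294 replicate 1, without BIX01294 replicate 3 or without DMSO replicate 1, and 4 without DMSO replicate 2. Of all genes, 1699 to 1910 rose when any 1 array was left out.

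**Figure D1:**
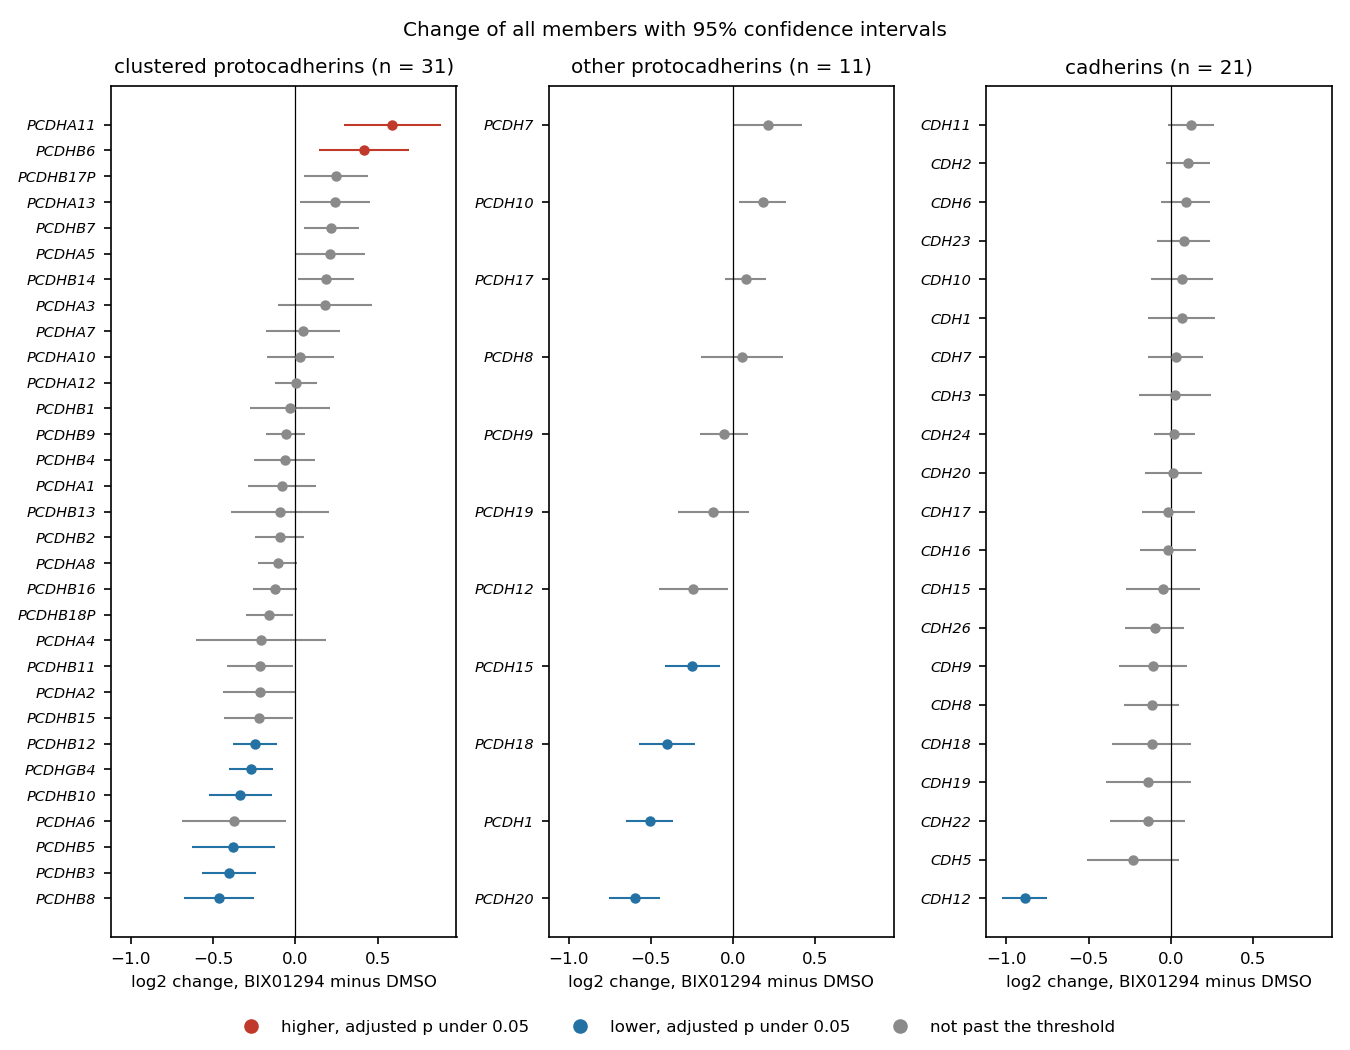
Change (BIX01294 minus DMSO, log2 scale, x axis) of each of the 63 members, by class, with its 95% confidence interval from limma; colours mark the call. CDH12 at -0.89 stood apart from the other 20 cadherins, which lay between -0.23 and 0.12 and did not pass the test, while the clustered protocadherins spread from -0.46 to 0.59.

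Among the classical cadherins, CDH12 alone passed the test. CDH12 encodes a type II cadherin of the brain. CDH12 measured 5.44, 5.48 and 5.42 in BIX01294, against 6.40, 6.37 and 6.25 in DMSO. The groups were far apart, and both lay under the median of every array. The change was -0.89 ± 0.060 (SE), with an adjusted p of 6.87e-05 in limma. It was the one member that also passed a test against a minimum change of 0.5 (limma's treat).

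The genes next to CDH12 on chromosome 5 did not pass the test. CDH18, the cadherin gene before it in gene order, measured 7.29, 7.37 and 7.37 in BIX01294, against 7.55, 7.63 and 7.20 in DMSO. DMSO replicate 3 lay below all BIX01294 arrays and the other DMSO arrays above them, so the groups overlapped. Without that array CDH18 was called lower too, which made 2 cadherins. CDH10, CDH9 and CDH6, which follow CDH12 among the members in that order, differed by 0.07, -0.11 and 0.09. Their changes were not set against that of CDH12 in a test.

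The other cadherins moved little. CDH2, N-cadherin, the main classical cadherin of neural cells, measured 11.84, 11.89 and 11.92 in BIX01294, against 11.85, 11.76 and 11.73 in DMSO. The groups overlapped by 1 array, and the change of 0.10 had a 95% confidence interval of -0.03 to 0.24 and an adjusted p of 0.251 in limma. CDH11, a cadherin of mesenchymal and bone-forming cells, measured 9.54, 9.61 and 9.55 in BIX01294, against 9.50, 9.48 and 9.35 in DMSO. Its groups did not overlap, but its change of 0.12 ± 0.062 (SE) did not pass the test, with an adjusted p of 0.203 in limma.

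Cadherins that mark other tissues did not pass the test either. CDH1, E-cadherin of epithelia, measured 5.10, 5.21 and 5.07 in BIX01294, against 4.92, 5.26 and 5.02 in DMSO, under the lower quartile of every array. CDH3, P-cadherin, lay there too, at 5.14, 5.40 and 5.16 in BIX01294, against 5.22, 5.07 and 5.34 in DMSO. The changes of CDH1 and CDH3 were 0.06 and 0.02, with adjusted p-values of 0.673 and 0.890 in limma. CDH5, VE-cadherin of endothelium, had the largest change among cadherins that did not pass, -0.23 ± 0.122 (SE), and BIX01294 replicate 2 at 6.24 lay inside the DMSO range of 6.14 to 6.33. The muscle, kidney and intestinal cadherins CDH15, CDH16 and CDH17 differed by -0.05, -0.02 and -0.01. In all, 1 of 21 cadherins was called (4.76%, against 23.6% of all genes), and 15 of the 21 lay under the median of every array. Their median change was -0.01, equal to that of all genes at 2 decimals.

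Of the 11 protocadherins outside the clusters, 4 fell and none rose, 36.4% against the 10.7% of all genes that fell. Their median change was -0.12, with -0.21 without DMSO replicate 2 and -0.0594 without BIX01294 replicate 3. PCDH20 had the largest fall among them. It measured 6.19, 6.23 and 6.29 in BIX01294, against 6.88, 6.72 and 6.91 in DMSO, with no overlap. The change was -0.60 ± 0.067 (SE), with an adjusted p of 0.000665 in limma. Both groups lay under the median of every array.

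PCDH1, an adhesion protein of airway epithelium among other tissues, measured 8.67, 8.80 and 8.71 in BIX01294, against 9.27, 9.15 and 9.28 in DMSO. Every BIX01294 array lay below every DMSO array. It was 1.42-fold lower, a change of -0.51 ± 0.063 (SE) with an adjusted p of 0.00101 in limma. PCDH18, of the delta group of protocadherins, measured 9.03, 9.15 and 9.20 in BIX01294, against 9.59, 9.59 and 9.41 in DMSO. Its groups did not overlap, and it was 1.32-fold lower, with an adjusted p of 0.00585 in limma.

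PCDH15, which forms the tip links of inner ear hair cells together with CDH23, had the smallest change of these calls. It measured 5.11, 5.27 and 5.34 in BIX01294, against 5.54, 5.49 and 5.43 in DMSO, and the groups were close but did not overlap. Its change was -0.25 ± 0.072 (SE), with an adjusted p of 0.0401 in limma. It kept its call only without BIX01294 replicate 3 among the single-array omissions: the adjusted p was 0.109 without BIX01294 replicate 1, 0.0740 without BIX01294 replicate 2, 0.125 without DMSO replicate 1, 0.0999 without DMSO replicate 2 and 0.0518 without DMSO replicate 3. It was 0.0650 after centring, 0.0700 with an intensity trend and robust estimation and 0.0786 with the replicate number as a block, and over all alternatives it ran from 0.0292 to 1. CDH23, its partner, differed by 0.08, with an adjusted p of 0.499 in limma.

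The remaining 7 protocadherins outside the clusters did not pass the test. PCDH12, an endothelial protocadherin, measured 5.71, 6.03 and 6.04 in BIX01294, against 6.17, 6.14 and 6.19 in DMSO. Its groups did not overlap, and the change was -0.24 ± 0.091 (SE), with an adjusted p of 0.0957 in limma. PCDH10, which recruits the actin-regulating WAVE complex, measured 9.20, 9.25 and 9.18 in BIX01294, against 9.09, 9.07 and 8.93 in DMSO. Its groups did not overlap, but the change of 0.18 had an adjusted p of 0.0766 in limma. PCDH10 was called higher in limma among genes at or above the median (adjusted p 0.0270) and with an intensity trend and robust estimation (0.0279). PCDH17, another delta protocadherin that binds this complex, differed by 0.08. PCDH7 differed by 0.21, PCDH8 by 0.05, PCDH9 by -0.06 and PCDH19, an X-linked epilepsy gene, by -0.12. PCDH20, PCDH17, PCDH8 and PCDH9 all lie on chromosome 13, and PCDH20 was the one among them that was called.

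**Figure D2:**
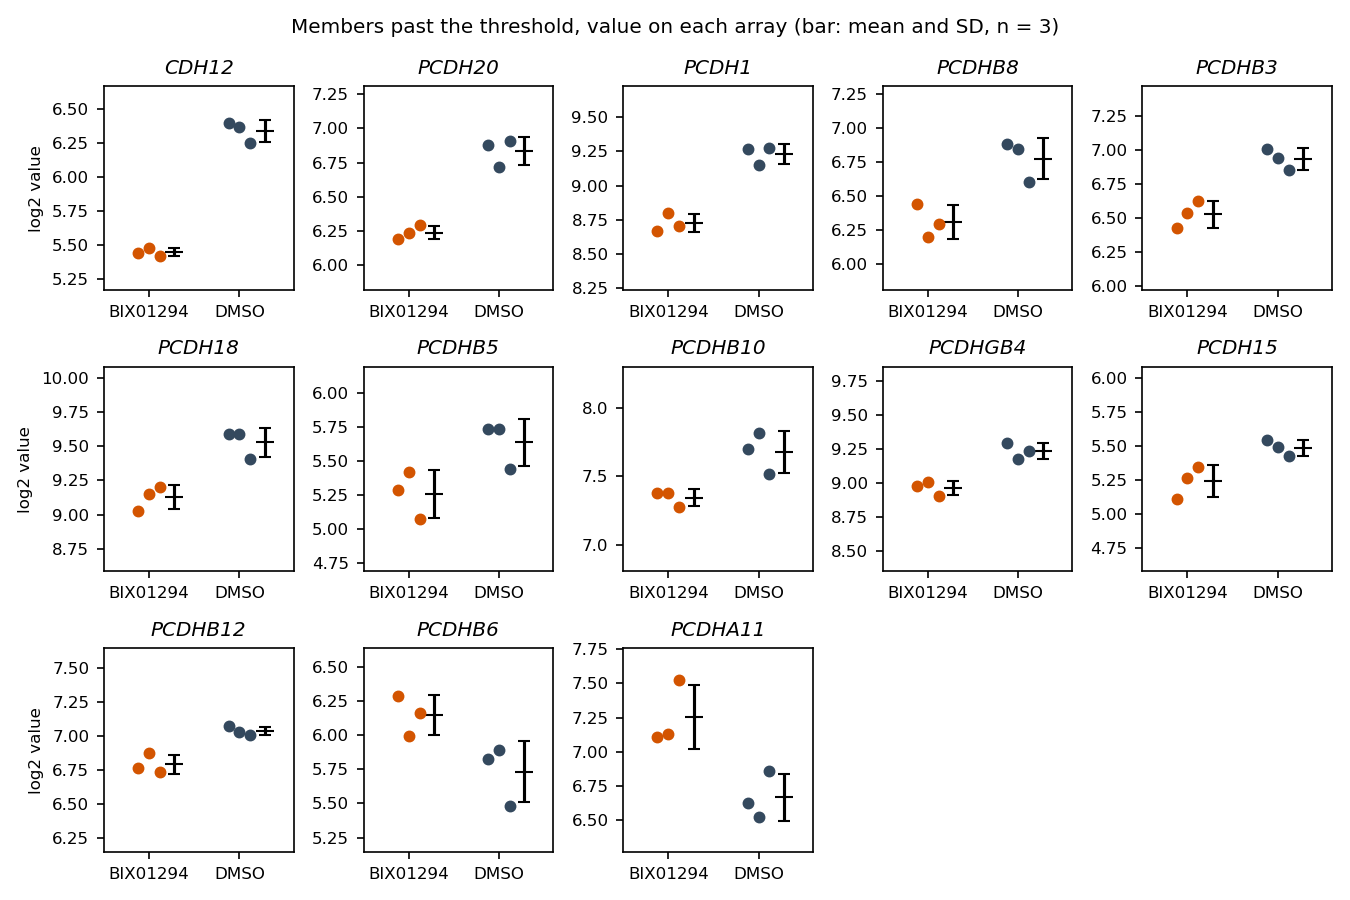
Log2 value (y axis, 1.5 units tall in each panel) of the 13 called members on each array, BIX01294 left and DMSO right, with the mean and SD of 3 arrays. No member of the 13 had overlapping groups, but genes picked by a small adjusted p tend to show this. Groups without overlap were seen for 22 of the 63 members, 34.9% against 40.1% of all genes. The gap was widest for CDH12 (5.48 at most in BIX01294, 6.25 at least in DMSO) and narrowest for PCDHB5 (5.42 at most in BIX01294, 5.44 at least in DMSO).

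Of the 31 clustered protocadherins, 6 fell and 2 rose, 25.8% called against 23.6% of all genes. Groups without overlap were seen for 14 of the 31, 45.2% against 40.1% of all genes. The median change was -0.09, and the median size of the change regardless of sign was 0.21, beside 0.11 for all genes. The median SE was 0.089 for them and 0.069 for all genes. After quantile normalization 7 fell and 2 rose (2282 and 2256 of all genes), and after centring 6 fell and 5 rose (1536 and 2762 of all genes). Only 3 fell without BIX01294 replicate 3 or without DMSO replicate 1, where 1319 and 1318 of all genes fell. Rising ones numbered 4 without DMSO replicate 2, and 1 without DMSO replicate 1, BIX01294 replicate 1 or BIX01294 replicate 3.

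In the PCDHB cluster 5 of 18 fell, 27.8% against 10.7% of all genes, and 1 rose, 5.56% against 12.9%. PCDHB8 measured 6.44, 6.20 and 6.29 in BIX01294, against 6.88, 6.84 and 6.60 in DMSO. All BIX01294 arrays were below all DMSO arrays, and the change was -0.46 ± 0.093 (SE), with an adjusted p of 0.00881 in limma. PCDHB13, whose promoter window is its closest copy, measured 6.21, 6.29 and 6.21 in BIX01294, against 6.43, 6.0 and 6.56 in DMSO. DMSO replicate 2 was the lowest PCDHB13 value and the groups overlapped, and the change of -0.09 did not pass the test. Without that array PCDHB13 was called lower (change -0.26, adjusted p 0.0454 in limma).

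PCDHB3 measured 6.43, 6.53 and 6.62 in BIX01294, against 7.01, 6.94 and 6.85 in DMSO. The groups did not overlap, and the change was -0.40 ± 0.071 (SE), with an adjusted p of 0.00485 in limma. PCDHB10 measured 7.38, 7.38 and 7.27 in BIX01294, against 7.70, 7.82 and 7.52 in DMSO, with all DMSO arrays higher. It was 1.26-fold lower, with an adjusted p of 0.0209 in limma. The PCDHB10 call was lost without BIX01294 replicate 3 (adjusted p 0.0807), DMSO replicate 1 (0.0657) or DMSO replicate 2 (0.0626), with values of 0.00510 to 1 across its alternatives.

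PCDHB12 measured 6.76, 6.87 and 6.74 in BIX01294, against 7.07, 7.03 and 7.01 in DMSO. Its groups did not overlap, and the change was -0.25 ± 0.058 (SE), with an adjusted p of 0.0176 in limma. The PCDHB12 call was lost without BIX01294 replicate 1 (adjusted p 0.0568) or 3 (0.0687) and without DMSO replicate 1 (0.0667) or 2 (0.0521), within 0.00922 to 1 over its alternatives. PCDHB5 measured 5.28, 5.42 and 5.07 in BIX01294, against 5.73, 5.73 and 5.44 in DMSO. The highest BIX01294 array was just below the lowest DMSO array, and the change was -0.38 ± 0.110 (SE), with an adjusted p of 0.0403 in limma. The PCDHB5 call was lost after quantile normalization (adjusted p 0.0500), without BIX01294 replicate 1 (0.0815) or 3 (0.128), and without DMSO replicate 1 (0.122) or 2 (0.116), within 0.00914 to 1 over its alternatives.

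PCDHB6 was the PCDHB gene that rose. It measured 6.29, 6.0 and 6.16 in BIX01294, against 5.83, 5.89 and 5.48 in DMSO. DMSO replicate 3 was the lowest value and no BIX01294 array reached into the DMSO range. The change was 0.42 ± 0.118 (SE), with an adjusted p of 0.0360 in limma. The PCDHB6 call was lost without BIX01294 replicate 1 (adjusted p 0.108) or 3 (0.104) and without DMSO replicate 1 (0.0569) or 3 (0.0710), within 0.0118 to 1 over its alternatives. The genes after it in order, the pseudogene PCDHB17P and PCDHB7, had changes of 0.25 and 0.22 with groups that did not overlap, and did not pass the test, with adjusted p-values of 0.0688 and 0.0667 in limma. After centring PCDHB17P and PCDHB7 passed, with adjusted p-values of 0.0341 and 0.0438 in limma, and PCDHB7 also passed without DMSO replicate 2 (0.0422) and among genes at or above the 25th percentile (0.0485). In gene order PCDHB5, which fell, stands just before PCDHB6, and the calls of both were lost in 4 of the 6 single-array omissions.

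The remaining PCDHB genes did not pass the test. PCDHB9 measured 9.32, 9.25 and 9.26 in BIX01294, against 9.36, 9.34 and 9.30 in DMSO, and its change of -0.06 had a 95% confidence interval of -0.18 to 0.06. PCDHB16 measured 9.68, 9.67 and 9.69 in BIX01294, against 9.89, 9.76 and 9.76 in DMSO. The PCDHB16 groups did not overlap, but the change of -0.13 did not pass the test, with an adjusted p of 0.166 in limma. After quantile normalization PCDHB16 was called lower (adjusted p 0.0399 in limma). PCDHB2 and PCDHB4 differed by -0.09 and -0.06. PCDHB14 differed by 0.19, PCDHB18P by -0.16, PCDHB11 and PCDHB15 by -0.22 each and PCDHB1 by -0.03. Of the 18 PCDHB genes, 14 had a change below 0, beside 9505 of the 18404 genes tested, and their median was -0.11.

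**Figure D3:**
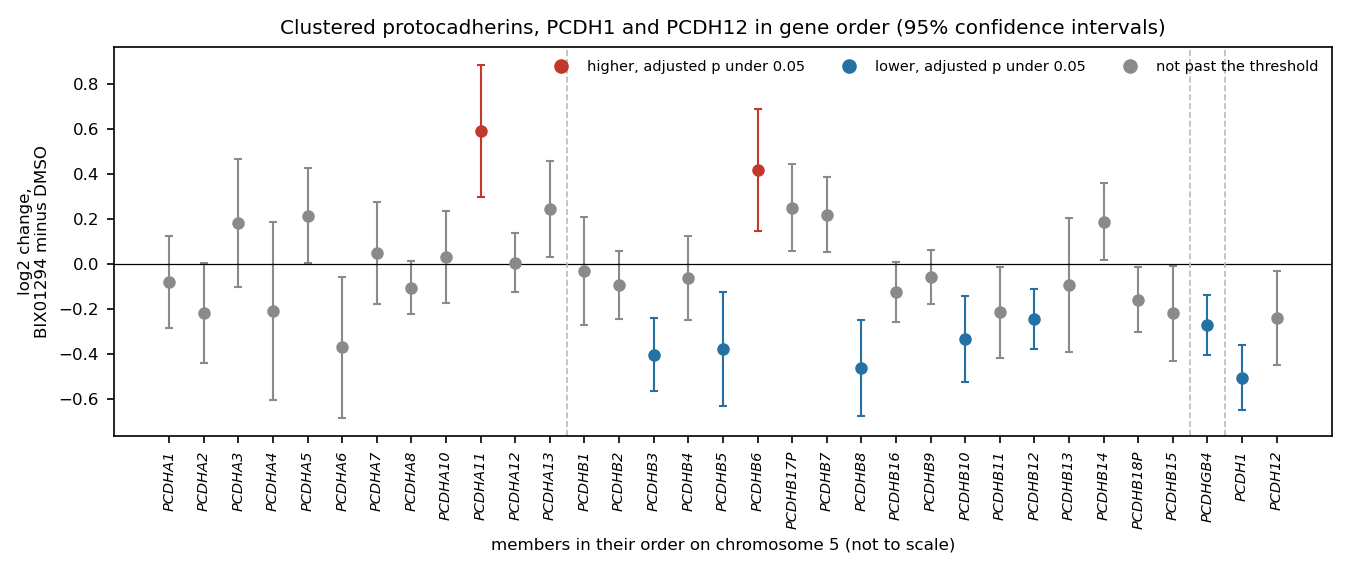
Change (BIX01294 minus DMSO, log2 scale, y axis) of the clustered protocadherins and of PCDH1 and PCDH12 in their order on chromosome 5, with 95% confidence intervals; dashed lines part the PCDHA, PCDHB and PCDHG genes and the 2 genes outside the clusters. PCDHB6 at 0.42 lies between PCDHB5 at -0.38 and, after 2 further genes with changes above 0, PCDHB8 at -0.46.

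In the PCDHA cluster 1 of 12 rose and none fell, 8.33% called against 23.6% of all genes. PCDHA11 measured 7.11, 7.13 and 7.53 in BIX01294, against 6.62, 6.52 and 6.86 in DMSO. Replicate 3 was the highest array of each group, and the groups did not overlap. PCDHA11 was 1.5-fold higher, a change of 0.59 ± 0.128 (SE) with an adjusted p of 0.0123 in limma, and it stayed called in all 6 single-array omissions. Its 3 DMSO values lay under the array median, so the fold may understate the difference. PCDHA12, the gene that follows it, measured 7.68, 7.74 and 7.77 in BIX01294, against 7.76, 7.67 and 7.76 in DMSO, so the groups overlapped at a change of 0.00.

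PCDHA6 had the largest change among members that did not pass the test. It measured 6.82, 6.25 and 6.50 in BIX01294, against 6.78, 6.86 and 7.05 in DMSO. BIX01294 replicate 1 lay inside the DMSO range, and the change was -0.37 ± 0.137 (SE), with an adjusted p of 0.0888 in limma. Without that array PCDHA6 passed, with an adjusted p of 0.0157 in limma, and it passed with an intensity trend and robust estimation (0.0301). PCDHA13 measured 8.15, 8.38 and 8.21 in BIX01294, against 7.99, 7.86 and 8.16 in DMSO, with overlap through DMSO replicate 3. Its change was 0.24 ± 0.093 (SE), with an adjusted p of 0.101 in limma, and 0.0433 without that array. PCDHA13 was also called higher in limma with array weights (adjusted p 0.0344) and after centring (0.0431). The same held among genes at or above the median (0.0398) and with an intensity trend and robust estimation (0.0392).

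The other PCDHA genes lay between -0.22 (PCDHA2) and 0.21 (PCDHA5). In limma PCDHA2 was called lower with array weights (adjusted p 0.0377) and without DMSO replicate 3 (0.0458), and PCDHA3 higher without DMSO replicate 2 (0.0228). A second PCDHA2 row, not used above, measured 5.25, 5.82 and 5.68 in BIX01294, against 6.37, 6.28 and 5.65 in DMSO, with overlap. The change of that row was -0.52 ± 0.212 (SE), with an adjusted p of 0.130 in limma over all rows with a symbol. One further row listed 15 PCDHA symbols together. It measured 8.50, 8.63 and 8.50 in BIX01294, against 8.51, 8.51 and 8.48 in DMSO, and its change of 0.04 ± 0.058 (SE) had an adjusted p of 0.656 in limma over all rows with a symbol. The median change of the 12 single PCDHA genes was 0.02. The 2 rows that list PCDH11X together with its near copy on the Y chromosome differed by 0.05 and 0.03 and did not pass.

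PCDHGB4, the one PCDHG gene with a row of its own, measured 8.98, 9.01 and 8.91 in BIX01294, against 9.30, 9.18 and 9.24 in DMSO. No BIX01294 array reached the DMSO range. PCDHGB4 was 1.21-fold lower, a change of -0.27 ± 0.058 (SE) with an adjusted p of 0.0113 in limma.

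Genes that act with these proteins moved in both directions. Among catenins and junction partners, 4 of 21 measured genes rose and 3 fell, beside 12.9% and 10.7% of all genes, with a list median of 0.06. The nectins, adhesion molecules of the immunoglobulin type that cooperate with cadherins, split: NECTIN1 measured 9.29, 9.31 and 9.24 in BIX01294, against 8.64, 8.62 and 8.56 in DMSO, and was 1.6-fold higher. IQGAP1, a scaffold that binds cadherin complexes and actin, was 1.31-fold higher, and NECTIN3 1.24-fold higher. NECTIN2 was 1.16-fold lower, and LIMA1, which links cadherin complexes to actin, 1.22-fold lower. In limma the adjusted p was 0.0389 for NECTIN3, 0.0358 for NECTIN2 and lower for the other 3. NECTIN3 kept its call only without DMSO replicate 1, and NECTIN2 only without DMSO replicate 3, among the single-array omissions, in which their adjusted p-values reached 0.125 and 0.124. Among catenins JUP, gamma-catenin, was 1.19-fold lower, with an adjusted p of 0.0135 in limma, and 0.0547 without BIX01294 replicate 3 and 0.0564 without DMSO replicate 1. CTNNB1 and CTNNA1 differed by 0.13 and -0.00 and did not pass, with adjusted p-values of 0.135 and 0.987 in limma. Of this list 4 genes were called with the replicate number as a block, 3 without BIX01294 replicate 3 and 4 without BIX01294 replicate 1, BIX01294 replicate 2 or DMSO replicate 1.

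Among other proteins with cadherin repeats, 1 of 24 measured genes rose and 2 fell, beside 12.9% and 10.7% of all genes, with a list median of -0.09. CLSTN2, a calsyntenin of synapses, measured 10.13, 10.25 and 10.24 in BIX01294, against 10.77, 10.71 and 10.71 in DMSO, and was 1.44-fold lower. CLSTN3, of the same family, was 1.23-fold lower. CDHR1, a photoreceptor cadherin, lay under every array's median and had a change of 0.27, with an adjusted p of 0.0474 in limma. CDHR1 lost its call in every single-array omission except that of BIX01294 replicate 1, with adjusted p-values of 0.0520 (without DMSO replicate 1) to 0.144 (without BIX01294 replicate 3), and with the replicate number as a block (0.0928). The desmosomal cadherins (DSC and DSG genes), the FAT and DCHS genes and the CELSR genes held no call.

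Of 14 transcriptional regulators of classical cadherins, 4 fell and none rose, beside 10.7% and 12.9% of all genes. With an intensity trend and robust estimation, or with genes at or above the median only, SNAI2 and ZEB1 were also called, both higher. SNAI1, a repressor of CDH1, measured 7.22, 7.26 and 7.31 in BIX01294, against 7.87, 7.86 and 7.92 in DMSO. The groups did not overlap and SNAI1 was 1.54-fold lower, with an adjusted p of 0.000222 in limma. TWIST1, TCF4 and ZEB2, which also act on cadherin genes in epithelial-mesenchymal transition, were 1.20-fold, 1.19-fold and 1.16-fold lower. ZEB2 kept its call only without BIX01294 replicate 3 among the single-array omissions (adjusted p 0.0655 to 0.114 in the other 5), and TWIST1 lost its call without that array (0.0548). CDH1 and CDH2, both targets of such factors, did not pass the test, as described above.

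Among proteases that cut cadherins or protocadherins, 1 of 16 rose and 1 fell, beside 12.9% and 10.7% of all genes. ADAM12 measured 9.86, 9.81 and 9.87 in BIX01294, against 9.08, 8.99 and 8.95 in DMSO, and was 1.79-fold higher, with an adjusted p of 7.09e-05 in limma. MMP2, a gelatinase, was 1.19-fold lower. ADAM10, a sheddase of N-cadherin, was not called. Of 15 cytoplasmic partners of protocadherins, FYN, a kinase, was 1.28-fold lower, TAOK2, a kinase that binds PCDH8 in rat, was 1.17-fold higher, and the other 13 were not called. These were 2 calls in 15 genes, against 23.6% of all genes. TAOK2 kept its call only without DMSO replicate 1 among the single-array omissions, with adjusted p-values of 0.0517 to 0.0816 in the other 5, and lost it with the replicate number as a block (0.0585). The count of calls was 1 with the block and without BIX01294 replicate 1, BIX01294 replicate 3 or DMSO replicate 2.

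In a list of chromatin and looping factors chosen for the clustered protocadherins, 8 of 24 measured genes were called. Of these 5 were lower and 3 higher, beside 10.7% and 12.9% of all genes. Of the 24, 23 lay above the median of every array, whereas all genes include dim ones. When only genes at or above the median of all rows were tested, 14 of 23 in this list were called, 7 in each direction. Of all 10754 genes in that test, 2071 fell and 2858 rose. Action of the listed factors on these clusters was not tested here. SETDB1, a histone methyltransferase whose loss alters the clustered protocadherins in mouse neurons, measured 9.01, 8.94 and 8.90 in BIX01294, against 9.48, 9.52 and 9.39 in DMSO. ATF7IP, its binding partner, measured 10.76, 10.84 and 10.82 in BIX01294, against 11.40, 11.38 and 11.37 in DMSO. Neither pair of groups overlapped: SETDB1 was 1.43-fold lower and ATF7IP 1.5-fold lower. LRIF1, which binds SMCHD1, was 1.42-fold lower, with 8.66, 8.53 and 8.64 in BIX01294, against 9.21, 9.13 and 9.01 in DMSO.

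STAG1, a cohesin subunit, measured 8.47, 8.44 and 8.50 in BIX01294, against 7.97, 8.0 and 7.77 in DMSO, and was 1.47-fold higher. In limma LRIF1 had an adjusted p of 0.00165, and ATF7IP, SETDB1 and STAG1 had lower ones. Other calls were HELLS and SMCHD1, which rose, and MAU2 and DNMT3A, which fell; SMCHD1 represses clustered protocadherins in mouse, and it had a change of 0.23 ± 0.062 (SE). SMCHD1 kept its call only without BIX01294 replicate 1 among the single-array omissions, with adjusted p-values of 0.0598 to 0.0944 in the other 5. CTCF itself had a change of 0.18 and the cohesin subunit RAD21 one of -0.17, and neither was called, with adjusted p-values of 0.0506 and 0.0576 in limma. CTCF was called higher after centring (0.0337), and RAD21 lower after quantile normalization (0.0163) and with array weights (0.0458). Among genes at or above the 25th percentile CTCF (0.0349) and RAD21 (0.0400) were both called. They were also called at or above the median (0.0155 and 0.0183) and with the trend fit (0.00934 and 0.00770). EHMT2, a target of BIX01294, differed by 0.00 in its transcript. With an intensity trend and robust estimation, 14 of these 24 genes were called, 7 in each direction. That fit also called more of all 18404 genes, 2991 higher and 2333 lower, beside 2379 and 1970 in the main fit.

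**Figure D4:**
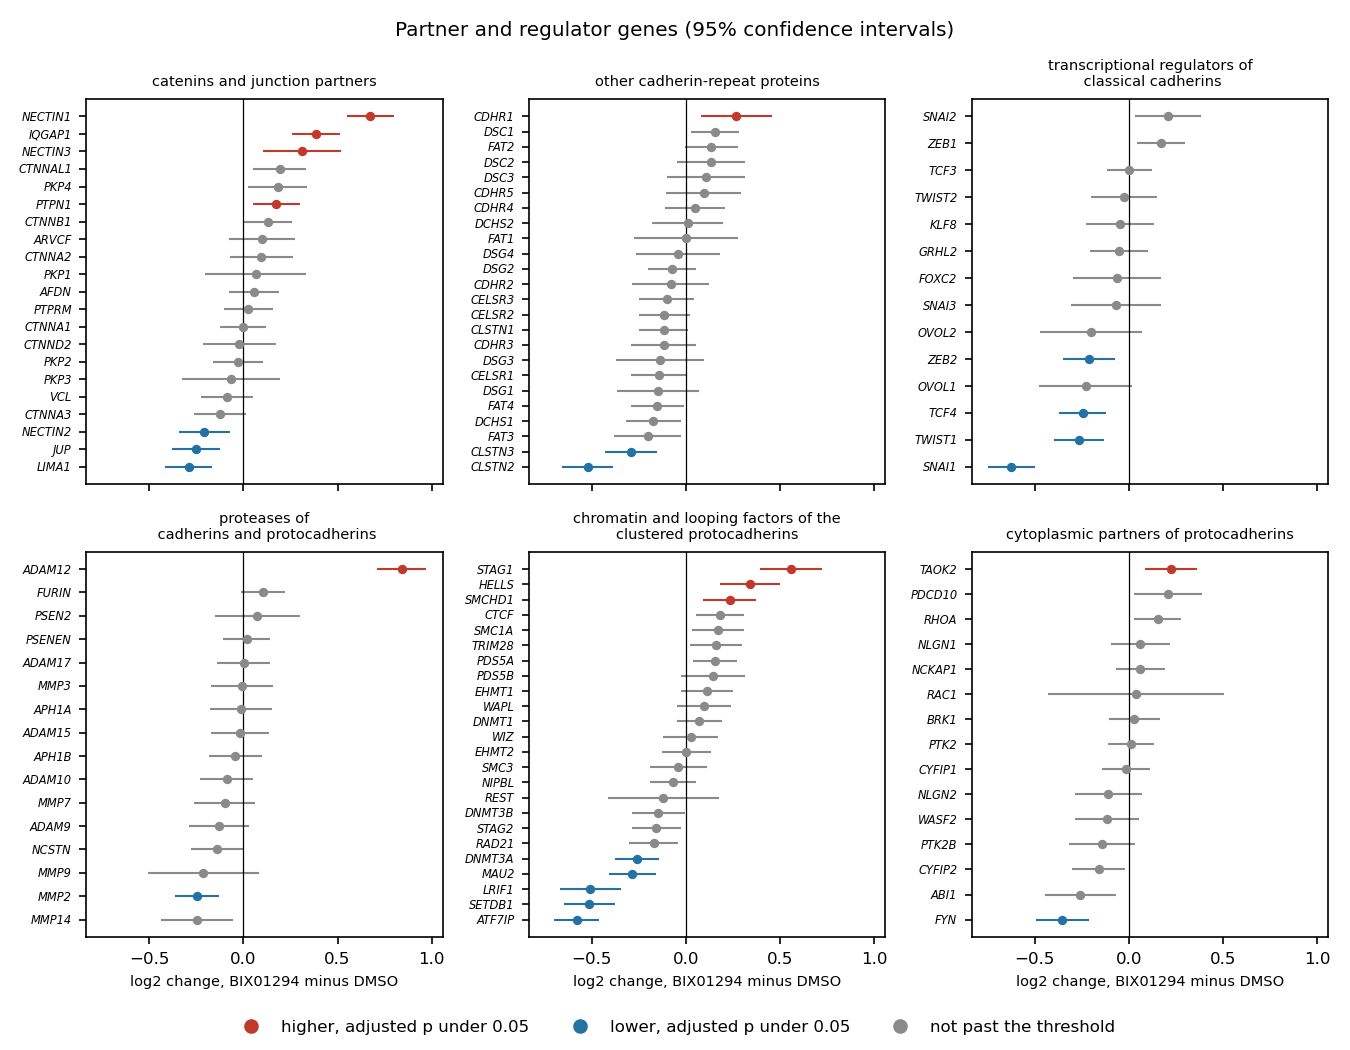
Change (BIX01294 minus DMSO, log2 scale, x axis) of measured genes in 6 lists of partners and regulators, with 95% confidence intervals from limma; colours mark the call. Each list but the transcriptional regulators, where 4 fell, held calls in both directions, from ADAM12 at 0.84 to SNAI1 at -0.62.

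Markers of other cell states moved beside these changes, where 12.9% of all genes rose and 10.7% fell. Opposite changes cancel in the sums below, so similar sums do not show that single markers held still. Of 13 measured mesenchymal or Schwann cell-like markers, 3 rose and 2 fell, and their log2 values summed to between 94.1 and 94.9 in BIX01294, against 94.67 to 94.95 in DMSO. VIM and DCN changed by 0.82 and -1.50. Of 9 measured epithelial markers 2 rose (CLDN4 and KRT19), with sums of 58.7 to 59.8 in BIX01294, against 59.3 to 59.5 in DMSO, and EPCAM, the defining one, differed by -0.18 and did not pass. The 7 epithelial markers not called all had changes below 0, KRT8 and KRT18 of -0.22 each, and the list median was -0.11. Of the 13 neuroblastoma identity genes 4 rose and 4 fell, so 8 were called, against 23.6% of all genes. All genes include dim ones, whereas these 13 lay above the median of every array. When only genes at or above the median of all rows were tested, 2858 of 10754 rose and 2071 fell. The sums of the identity genes were 146.8 to 147.2 in BIX01294, against 147.0 to 147.5 in DMSO. They held 3 to 5 calls when any 1 array was left out. The part of these markers in the changes of the members was not tested.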

How the data were processed

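Gene expression was measured on 1 Affymetrix array per sample. The authors deposited 1 log2 value per row and array (the scale was read from the values, 1.93 to 14.93). Partek is the one tool in the submitters' processing notes; how background, normalization and summarization were handled is a step not given in the sources used here. The 32321 rows divide into 19158 with a single symbol in GEO's annotation of the platform, 1388 with more than 1 and 11775 with no symbol in that annotation. Symbols were updated through Entrez identifiers to RefSeq (GRCh38.p14; 19128 rows matched), used for names and gene order. The row with the highest mean was kept per gene. Without further normalization the values went into limma 3.58.1 (R 4.3.3) with treatment as the only term (two-sided, Benjamini-Hochberg over 18404 genes, threshold 0.05, no filter on low values), after the fit was tested on simulated data. With filters on dim genes, 53 members had a mean at or above the 25th percentile of all rows and 26 at or above the median. Arrays of a group differed by a median of 0.083 to 0.116, with 23 to 40 identical rows. The number of arrays limits the precision.

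The members, the 9 gene lists (161 entries, 149 measured), the naming rule and the alternatives were chosen with earlier results of these data known. The rule names every called member, CDH1, CDH2, CDH3 and CDH4 (the last not analysed here), the 5 largest changes not called, and up to 4 calls per other list; the other genes are named to account for members or partners and were chosen after their values were seen. Alternatives changed the scaling (quantile normalization or median centring), the rows (2 filters on dim genes, averaging a gene's rows, or testing each row that has a symbol) or the fit (trend and robust options, weights per array, a block for the replicate number, treat with a minimum change of 0.5), or left out each array in turn.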

Additional observations from a re-analysis of the deposited data

How the results depend on the processing

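No called member changed sign under the 16 alternatives, and 8 of the 13 (CDH12, PCDH20, PCDH1, PCDH18, PCDHB3, PCDHB8, PCDHA11 and PCDHGB4) stayed called in each that tested them, treat excepted, as did 26 of the 41 called genes of the other lists. A minimum change of 0.5 (treat) left 0 members higher and 1 lower (clustered 0 and 0, other protocadherins 0 lower), 64 and 81 of all genes, 1 protease, 1 mesenchymal marker and 0 in the other lists. Centring gave 5 members higher, all 5 clustered, 2762 of all genes higher, and a median of all genes of 0.027. The trend fit gave 4 members higher (1 other protocadherin), 14 chromatin factors and 4 cytoplasmic partners, and array weights 4 of the last. Over all genes the trend fit called 2991 higher and 2333 lower, and array weights 2509 and 2321. Keeping genes at or above the median left 5 members lower (3 clustered, 2 other, 0 cadherins) and 3 higher (1 other protocadherin). It also left 14 chromatin factors, 6 cytoplasmic partners, 1 epithelial marker and a cadherin median of 0.067. That filter tested 26 members (4 other protocadherins and 5 cadherins among them) and 23 chromatin factors. Of the 10754 genes it tested, 2858 were called higher and 2071 lower. The other filter moved the median of other protocadherins to -0.056. These filters test fewer genes; for the rest the cause was not tested.

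Same-numbered arrays correlated at 0.19, -0.18 and 0.05 in their deviations, and not every array correlated best with its own number, so the numbers were not taken as pairs. The replicate block gave 1 other protocadherin higher (PCDH7), 4 catenins and partners, 1 cytoplasmic partner and 4 identity genes. Leaving out 1 array gave 1 to 4 members higher and 7 to 13 lower, 1 to 4 and 3 to 8 clustered, 1 to 2 cadherins lower, a median of -0.209 to -0.0594 for other protocadherins, and 3 to 5 catenins and partners, 1 to 2 cytoplasmic partners and 3 to 5 identity genes. Over all genes these omissions gave 1699 to 1910 higher and 1318 to 1818 lower.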
